A study of Mus musculus with 6 samples.

Results

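The genes described here are the liver X receptors, their best known targets in cholesterol efflux, and their targets in lipid synthesis. They are *Nr1h3*, *Nr1h2*, *Abca1*, *Abcg1*, *Apoe*, *Mylip*, *Srebf1*, *Scd1*, *Scd2* and *Lpcat3*, chosen by name and found by symbol in the gene tables of the 6 libraries. The choice was made with earlier results of these data known. They are 10 of the 24346 genes listed, and all 10 were among the 12923 that were tested because their mean FPKM reached 0.5. FPKM is a fragment count that is divided by the length of the transcript and by the size of the library. Gene levels were compared in the hearts of male C57BL/6J mice in 3 groups, with 2 libraries in each. Chow was given to the C group. Mice of the N group received a NASH diet, which contains bile acid with much fat, cholesterol and sucrose, and those of the NP group received the same diet with pemafibrate, a drug that acts on PPARα, at 0.1 mg/kg. The sample labels give 3 weeks of feeding and the study's methods give a longer time, and the age of the mice is not given in the sources used here. Their tissue is labelled heart, although the extraction text of the labels speaks of liver. Whether the 2 libraries of a group came from separate mice is not stated, so the *P* values measure the spread between these libraries, which may be technical.

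Liver X receptors are nuclear receptors that are activated by oxysterols, which are oxidized forms of cholesterol that build up when a cell holds too much of it. They bind DNA together with a retinoid X receptor and raise the transcription of genes that carry cholesterol out of the cell, reduce its uptake through the LDL receptor, and make and desaturate fatty acids. A pair of receptors exists: LXRα, encoded by *Nr1h3* and abundant in liver, fat and macrophages, and LXRβ, encoded by *Nr1h2* and present in most tissues.

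The receptor dimer binds a pair of similar six-base half-sites in the same orientation with 4 bases between them. For 7 of the 10 genes a promoter sequence was found in RefSeq (GRCm38.p6), with 12 start sites in all, and *Abcg1*, *Scd1* and *Scd2* were not matched. The 250 bases before each start were searched on both strands for GGGTTA and CGGTCA spaced by 4 bases. This pair of half-sites stood before 1 start of *Abca1* and 1 start of *Srebf1*. It stood before 3 of the 32851 starts in the table, which is 0.00913%, and the third was that of *Fasn*, which encodes fatty acid synthase and was singled out after this search. The half-sites were set by hand, and where they come from is not given in the sources used here. They may have been taken from promoters such as these, so the rarity of the pair is no support for *Abca1* and *Srebf1*. A looser direct repeat, AGGTCA and AGGTCA spaced by 4 bases with up to 3 mismatches in all, stood before 18.5% of all starts. Among the 12 starts of these genes it stood before the same 2 as the exact pair, 1 of *Abca1* and 1 of *Srebf1*. The exact pair itself lies within these 3 mismatches, so the looser search added nothing to it. Both promoters are shown because they are those of the 10 genes in which the exact pair was found, each on the strand of its gene, with the half-sites in capitals. On this strand the pair reads as its reverse complement.

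*Abca1*, chr4:53159896-53160145, minus strand: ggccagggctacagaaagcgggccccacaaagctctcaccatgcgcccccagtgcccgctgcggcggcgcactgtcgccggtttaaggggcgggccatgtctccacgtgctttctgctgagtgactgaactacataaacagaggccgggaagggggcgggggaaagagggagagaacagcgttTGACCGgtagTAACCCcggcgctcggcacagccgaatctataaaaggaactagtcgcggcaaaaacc

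*Srebf1*, chr11:60210472-60210721, minus strand: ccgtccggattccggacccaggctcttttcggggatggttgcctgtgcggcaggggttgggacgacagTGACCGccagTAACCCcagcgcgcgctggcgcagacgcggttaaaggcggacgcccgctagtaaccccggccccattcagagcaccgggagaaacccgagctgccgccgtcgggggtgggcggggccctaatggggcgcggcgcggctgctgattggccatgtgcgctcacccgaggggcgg

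The pair lay between 67 and 52 bases before the start in *Abca1*, at chr4:53159947-53159962, and its letters on the opposite strand are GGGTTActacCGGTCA. In *Srebf1* it lay between 182 and 167 bases before the start, at chr11:60210638-60210653, and reads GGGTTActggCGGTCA. The elements therefore differed only within the 4 spacer bases. A match of letters is a description and not a measured binding site. The levels of *Abca1* and *Srebf1* are given with those of the other genes.

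Several libraries stood apart in ways that touch these genes. The 5 atrial markers *Nppa*, *Myl7*, *Myl4*, *Sln* and *Bmp10* summed to 172 and 307 FPKM in the C libraries and to between 3665 and 6191 FPKM in the N and NP libraries. *Sln* and *Bmp10* were listed at 0 in C replicate 1. C replicate 2 carried hepatocyte transcripts, with 454 FPKM over 6 markers against 33.0 FPKM in C replicate 1 and between 10.5 and 14.3 FPKM in the N and NP libraries. Adipocyte markers summed to 185 and 90.5 FPKM in the N libraries and 74.8 FPKM in NP replicate 2, but to 16.1 FPKM in NP replicate 1 and to 2.11 and 9.35 FPKM in the C libraries. The 6 cardiomyocyte markers were high in every library, and their sum was 55834 and 59452 FPKM in the C libraries against 41402 to 51226 FPKM in the N and NP libraries. Among them *Myl2*, the light chain of ventricular myosin, was at 24052 and 26366 FPKM in the C libraries and between 11855 and 18366 FPKM in the others. *Tnnt2* and *Tnni3* were also highest in C replicate 2 (9822 and 8670 FPKM). The order did not hold for each marker, since *Myh6* and *Ryr2* were highest in NP replicate 1 (6856 and 231 FPKM) and *Actc1* in NP replicate 2 (11324 FPKM). Depth estimated from the FPKM was 26100000 and 21300000 reads in the C libraries and between 8150000 and 8760000 reads in the others. The C libraries were thus 2.43 to 3.20 times as deep, so that depth, the atrial transcripts and the diet cannot be told apart in comparisons with the C group. In heart tissue sequenced as a whole, fewer cells of a type and less RNA per cell cannot be told apart either.

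In the N group relative to the C group, *Abcg1* and *Scd2* rose, and the other 8 genes did not pass the test. Differences were computed on the log2(FPKM + 1) scale with limma over all genes tested, with Benjamini-Hochberg adjustment of the *P* values and a threshold of 0.05. In this comparison 1.55% of all genes tested were called, against 2 of these 10 genes. All 10 differences were above 0, with a median of 0.50, whereas 44.8% of all genes tested were higher in the N group and their median was -0.03. Without adjustment, 4 of the 10 genes had a *P* value under 0.05 in limma, as did 1938 of the 12923 genes tested. For 7 of the 10 genes, the N libraries were both higher than both C libraries, as was the case for 22.5% of all genes tested. Since the genes were chosen with earlier results of these data known, such counts beside all genes are a description and no test of the list. This holds for each comparison below as well.

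In the NP group relative to the N group, 0 of the 10 genes passed the limma test after adjustment. Only 1 gene of the 10, *Abcg1*, had an unadjusted *P* value under 0.05, as did 1039 of the 12923 genes tested. The limma test called 1.39% of all genes tested here, all of them lower in the NP group. Differences were above 0 for 3 of the 10 genes and for 55.8% of all genes tested. The median of the 10 was -0.11, against 0.03 for all genes tested. Both NP libraries lay below both N libraries for 3 of the 10 genes, *Nr1h2*, *Abcg1* and *Apoe*, and for 14.7% of all genes tested. Both lay above for 0 of the 10 genes and for 15.2% of all genes tested.

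In the NP group relative to the C group, limma called 0 of the 10 genes after adjustment and 0.0387% of all genes tested. An unadjusted *P* value under 0.05 in limma was found for 4 of the 10 genes and for 1040 of the 12923 genes tested. All 10 differences were above 0, whereas 47.2% of all genes tested were higher in the NP group. The median of the 10 was 0.45, against -0.01 for all genes tested. Both NP libraries lay above both C libraries for 7 of the 10 genes and for 19.5% of all genes tested. The comparisons of N with C and of NP with C share the C libraries, and those of N with C and of NP with N share the N libraries, so that none is independent of the others.

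**Figure D1:**
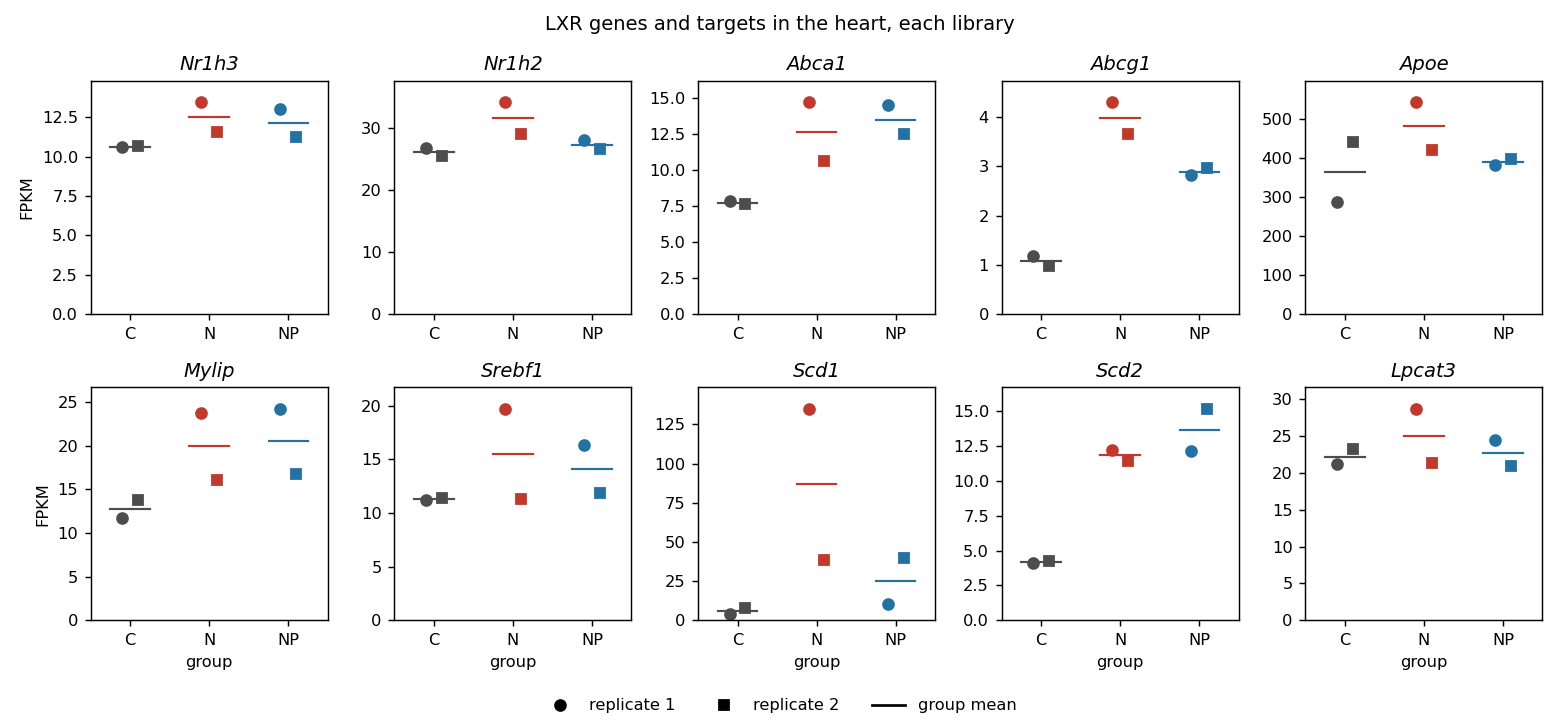
FPKM of the 10 genes in each library (vertical axes, starting at 0) for the C, N and NP groups, with circles for replicate 1, squares for replicate 2 and a bar at the group mean. *Nr1h3*, *Abca1*, *Abcg1*, *Mylip*, *Scd1* and *Scd2* lie above both C libraries in all 4 libraries from mice on the NASH diet. *Scd1* ranges from 4.36 FPKM in C replicate 1 to 135 FPKM in N replicate 1.

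**Figure D2:**
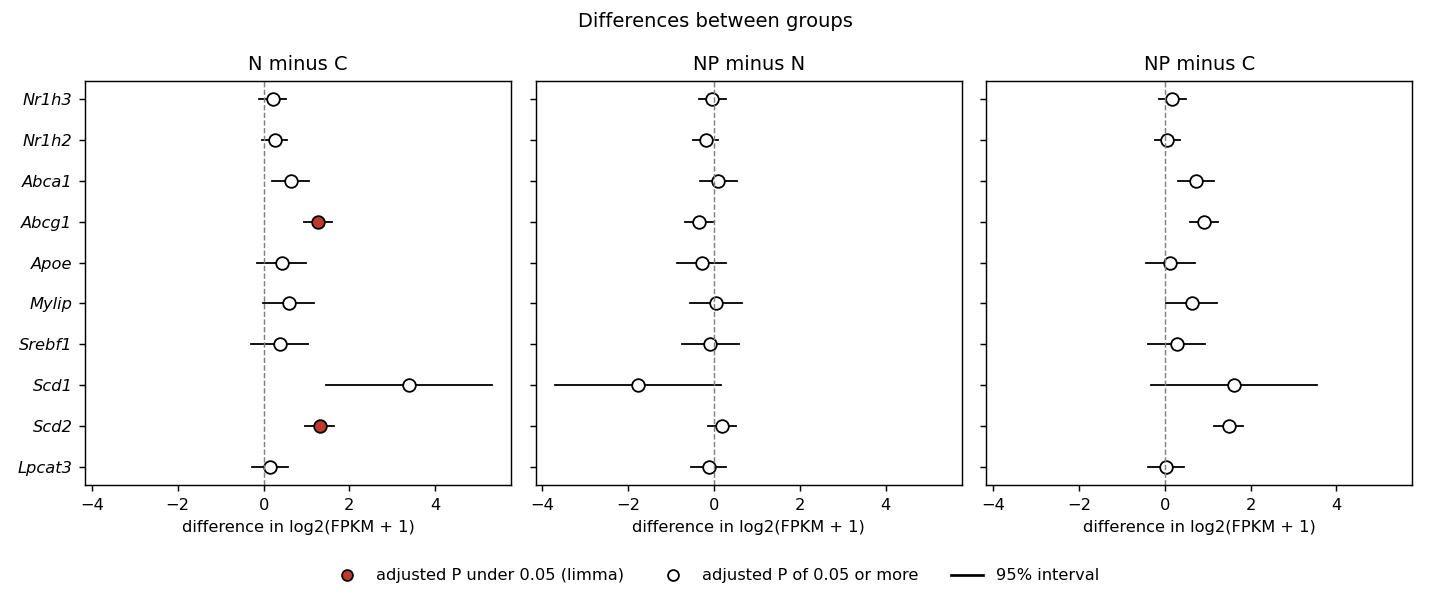
Differences in log2(FPKM + 1) between groups for the 10 genes, with points for the limma estimate, lines for the 95% interval, and filled points for an adjusted *P* value under 0.05. The filled points are *Abcg1* at 1.26 and *Scd2* at 1.31 in N minus C, and *Scd1* has the widest intervals.

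The genes of both receptors differed little between groups. *Nr1h3* (chr2:91184061-91202829, minus strand) was at 10.6 FPKM in both C libraries, 13.5 and 11.6 FPKM in the N libraries, and 13.05 and 11.2 FPKM in the NP libraries. All 4 libraries from the NASH diet lay above both C libraries, and the gap between the N libraries was wider than that from N replicate 2 to the C libraries. The difference of N from C was 0.21 on the log2 scale with a 95% interval from -0.10 to 0.53 and an adjusted *P* value of 0.492 in limma. The NP group differed from the N group by -0.04, with an interval from -0.35 to 0.28.

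*Nr1h2* (chr7:44549616-44553968, minus strand) was the more abundant receptor transcript, at 26.8 and 25.5 FPKM in the C libraries, 34.2 and 29.0 FPKM in the N libraries, and 28.0 and 26.5 FPKM in the NP libraries. The N libraries were the highest of the 6, while the NP libraries overlapped with the C libraries. Its difference was 0.26 between N and C, with an interval from -0.04 to 0.55, and -0.20 between NP and N, with an interval from -0.50 to 0.09. The adjusted *P* values in limma were 0.390 and 0.855. On the FPKM scale, which is normalized for transcript length, *Nr1h2* was between 2.15 and 2.54 times *Nr1h3* in every library. A *P* value that misses the threshold does not show that the receptor genes were at the same level in the 3 groups.

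Of the genes of cholesterol efflux, *Abcg1* rose in the N group and *Abca1* did not pass the test. *Abcg1* (chr17:31057694-31117984, plus strand) encodes a transporter that passes cholesterol to HDL and is prominent in macrophages. It was at 1.18 and 0.972 FPKM in the C libraries, 4.31 and 3.67 FPKM in the N libraries, and 2.82 and 2.97 FPKM in the NP libraries. The 3 groups did not overlap, and the NP libraries stood between the others. The mean was 1.07 ± 0.145 FPKM in the C group and 3.99 ± 0.451 FPKM in the N group (SD, n = 2), a ratio of 3.71. The difference was 1.26 ± 0.13 (SE) on the log2(FPKM + 1) scale, with an interval from 0.94 to 1.59 and an adjusted *P* value of 0.0121 in limma. This scale understates the change of a gene at such low levels. Between NP and N the difference was -0.36, with an interval from -0.68 to -0.03 and an adjusted *P* value of 0.553, and between NP and C it was 0.91, with an interval from 0.58 to 1.24 and an adjusted *P* value of 0.199. At the estimated depth, these values rest on about 117 to 211 reads per library. The call between N and C was lost when C replicate 1 (adjusted *P* = 0.0570), C replicate 2 (0.130) or N replicate 1 (0.0654) was left out of the limma fit, with the lone library assumed to vary like the other groups, and it held without N replicate 2 (0.0487).

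Macrophage markers changed between the N and NP groups, where the difference of *Abcg1* did not pass the test. The 10 macrophage markers summed to 408 and 366 FPKM in the C libraries, 759 and 633 FPKM in the N libraries, and 310.4 and 273 FPKM in the NP libraries. Of these markers, 4 of 10 rose from the C to the N group and 7 of 10 fell from the N to the NP group in limma, and none was listed at 0 in any library. The marker sums of the NP libraries lay below those of both C libraries, and *Abcg1* lay above both. Between NP and C, limma called 0 of the 10 markers. Lymphocyte markers, 5 genes, summed to 0.268 and 0.333 FPKM in the C libraries, 5.70 and 5.85 FPKM in the N libraries, and 0.824 and 0.179 FPKM in the NP libraries. The part of macrophages or lymphocytes in the level of *Abcg1* was not tested.

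*Abca1* (chr4:53030789-53159988, minus strand) encodes the transporter that loads cholesterol and phospholipid onto apolipoprotein A-I. It was at 7.85 and 7.63 FPKM in the C libraries, 14.7 and 10.6 FPKM in the N libraries, and 14.6 and 12.5 FPKM in the NP libraries. Every library from the NASH diet lay above both C libraries, and the N and NP libraries overlapped. The difference between N and C was 0.63 ± 0.17 (SE), with an interval from 0.21 to 1.05 and an adjusted *P* value of 0.181 in limma. It passed the test when the replicate number was added as a block within N and NP only (adjusted *P* = 0.0245), but not with the block in all 3 groups (0.0781). Between NP and C it was 0.73, with an interval from 0.31 to 1.15 and an adjusted *P* value of 0.462, and between NP and N it was 0.10, with an interval from -0.32 to 0.52. *Abca1* was 6.67 and 7.85 times *Abcg1* in FPKM in the C libraries, 3.42 and 2.90 times in the N libraries, and 5.17 and 4.21 times in the NP libraries.

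*Apoe* (chr7:19696244-19701310, minus strand), which encodes an apolipoprotein that accepts cholesterol and is made by hepatocytes and macrophages, was the most abundant of the 10 transcripts. It was at 288 and 443 FPKM in the C libraries, 544 and 421 FPKM in the N libraries, and 382 and 399 FPKM in the NP libraries. The C and N groups overlapped, because C replicate 2 lay above N replicate 2. The difference between N and C was 0.42, with an interval from -0.15 to 0.99 and an adjusted *P* value of 0.463 in limma. It was 0.11 without C replicate 1 and 0.73 without C replicate 2, the library with the hepatocyte transcripts. In that library *Alb*, the gene of albumin, was at 211 FPKM, against 10.8 FPKM in C replicate 1 and between 0.555 and 2.04 FPKM in the N and NP libraries. The part of liver RNA in the *Apoe* level was not tested. Between NP and N the difference was -0.29, with an interval from -0.87 to 0.28.

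*Mylip* (chr13:45389742-45411940, plus strand) encodes IDOL, a ubiquitin ligase that marks the LDL receptor for breakdown. It was at 11.7 and 13.7 FPKM in the C libraries, 23.7 and 16.1 FPKM in the N libraries, and 24.2 and 16.8 FPKM in the NP libraries. Both groups on the NASH diet lay above the C group and overlapped with each other, with replicate 1 well above replicate 2 in each. The difference was 0.59 between N and C, with an interval from -0.01 to 1.19, and 0.63 between NP and C, with an interval from 0.03 to 1.23. The adjusted *P* values in limma were 0.341 and 0.597. With the block within N and NP only the former was 0.0321, past the threshold, and with the block in all 3 groups it was 0.190. Between NP and N the difference was 0.04, with an interval from -0.56 to 0.64.

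Among the genes of lipid synthesis, *Scd2* rose in the N group, and *Scd1* had the largest difference but also the largest spread. Stearoyl-CoA desaturases put a double bond into saturated fatty acids. *Scd2* (chr19:44293676-44306864, plus strand), the form known from brain and developing tissues, was at 4.08 and 4.28 FPKM in the C libraries, 12.2 and 11.4 FPKM in the N libraries, and 12.1 and 15.2 FPKM in the NP libraries. The C libraries lay far below the other 4, and the N and NP libraries overlapped. The mean was 4.18 ± 0.142 FPKM in the C group and 11.8 ± 0.568 FPKM in the N group (SD, n = 2), a ratio of 2.83, and 13.6 ± 2.16 FPKM in the NP group. The difference between N and C was 1.31 ± 0.14 (SE), with an interval from 0.97 to 1.64 and an adjusted *P* value of 0.0116 in limma. Between NP and C it was 1.49, with an interval from 1.16 to 1.83 and an adjusted *P* value of 0.0578, which passed the threshold with the replicate block in all 3 groups (0.0316) or in the N and NP groups alone (0.0197). The NP group differed from the N group by 0.18, with an interval from -0.15 to 0.52 and an adjusted *P* value of 0.910.

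The call of *Scd2* between N and C was lost in limma when C replicate 1 (adjusted *P* = 0.0872), C replicate 2 (0.115), N replicate 1 (0.0709) or N replicate 2 (0.0553) was left out, while the difference stayed between 1.26 and 1.35. The atrial markers were high in the same 4 libraries as *Scd2*, and 5 of 5 rose in the N group and 3 of 5 in the NP group, both against the C group, in limma. Between the N and NP groups, whose libraries all carried atrial transcripts, 0 of 5 atrial markers passed the limma test, with 0 at an unadjusted *P* value under 0.05. Schwann cell markers were higher in the same 4 libraries, with 2.98 and 3.29 FPKM over 4 genes in the C libraries, 5.36 and 6.13 FPKM in the N libraries, and 5.50 and 6.53 FPKM in the NP libraries. Among them the myelin gene *Mbp* was at 0.976 and 1.02 FPKM in the C libraries, 2.81 and 2.99 FPKM in the N libraries, and 2.25 and 3.55 FPKM in the NP libraries, with an adjusted *P* value of 0.0845 for N against C in limma. The part of atrial tissue or Schwann cells in the level of *Scd2* was not tested.

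*Scd1* (chr19:44394450-44407709, minus strand), the form abundant in fat and liver, was at 4.36 and 8.19 FPKM in the C libraries, 135 and 38.4 FPKM in the N libraries, and 10.4 and 39.5 FPKM in the NP libraries. Both N libraries and both NP libraries lay above the C group, and NP replicate 2 was as high as N replicate 2. The means were 6.27 ± 2.71, 86.7 ± 68.4 and 24.9 ± 20.6 FPKM in the C, N and NP groups (SD, n = 2), so that the SD was nearly as large as the mean in both groups on the NASH diet. The difference between N and C was 3.38 ± 0.79 (SE), with an interval from 1.45 to 5.32 and an adjusted *P* value of 0.131 in limma. It lay between 2.49 without N replicate 1 and 4.28 without N replicate 2. Between NP and N the difference was -1.77, with an interval from -3.71 to 0.17 and an adjusted *P* value of 0.703. It was -0.85 without NP replicate 1 and -0.87 without N replicate 1, but -2.69 without NP replicate 2 and -2.66 without N replicate 2.

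The order of the 6 libraries by *Scd1* was that of the summed adipocyte markers, apart from N replicate 2 and NP replicate 2, which changed places. The 7 markers measured included *Adipoq*, the adiponectin gene, and *Plin1*, which coats lipid droplets. *Cfd*, which encodes the adipocyte protein adipsin, was at 1.17 and 5.53 FPKM in the C libraries, 142 and 53.5 FPKM in the N libraries, and 11.2 and 44.3 FPKM in the NP libraries. Of the 5 adipocyte markers that were tested, 0 passed the limma test in any of the 3 comparisons, with 5, 0 and 3 at an unadjusted *P* value under 0.05 for N against C, NP against N and NP against C. Among the markers, *Plin1* and *Lep* were listed at 0 in C replicate 1 and *Lep* was listed at 0 in NP replicate 1. The brown fat gene *Ucp1* was listed at 0 in C replicate 1 and NP replicate 1, and was at 0.0640 FPKM in C replicate 2, 5.84 and 14.3 FPKM in the N libraries and 12.97 FPKM in NP replicate 2. *Otop1* was listed at 0 in the same libraries and did not exceed 0.478 FPKM. The other brown adipocyte markers did not share this order. *Cidea* was at 32.1 and 29.9 FPKM in the C libraries, 33.6 and 27.3 FPKM in the N libraries, and 18.8 and 24.5 FPKM in the NP libraries. *Elovl3* was highest in C replicate 2 at 3.33 FPKM. The part of fat tissue in the *Scd1* level was not tested. *Scd1* was 1.07 and 1.91 times *Scd2* in FPKM in the C libraries, 11.05 and 3.36 times in the N libraries, and 0.856 and 2.60 times in the NP libraries.

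**Figure D3:**
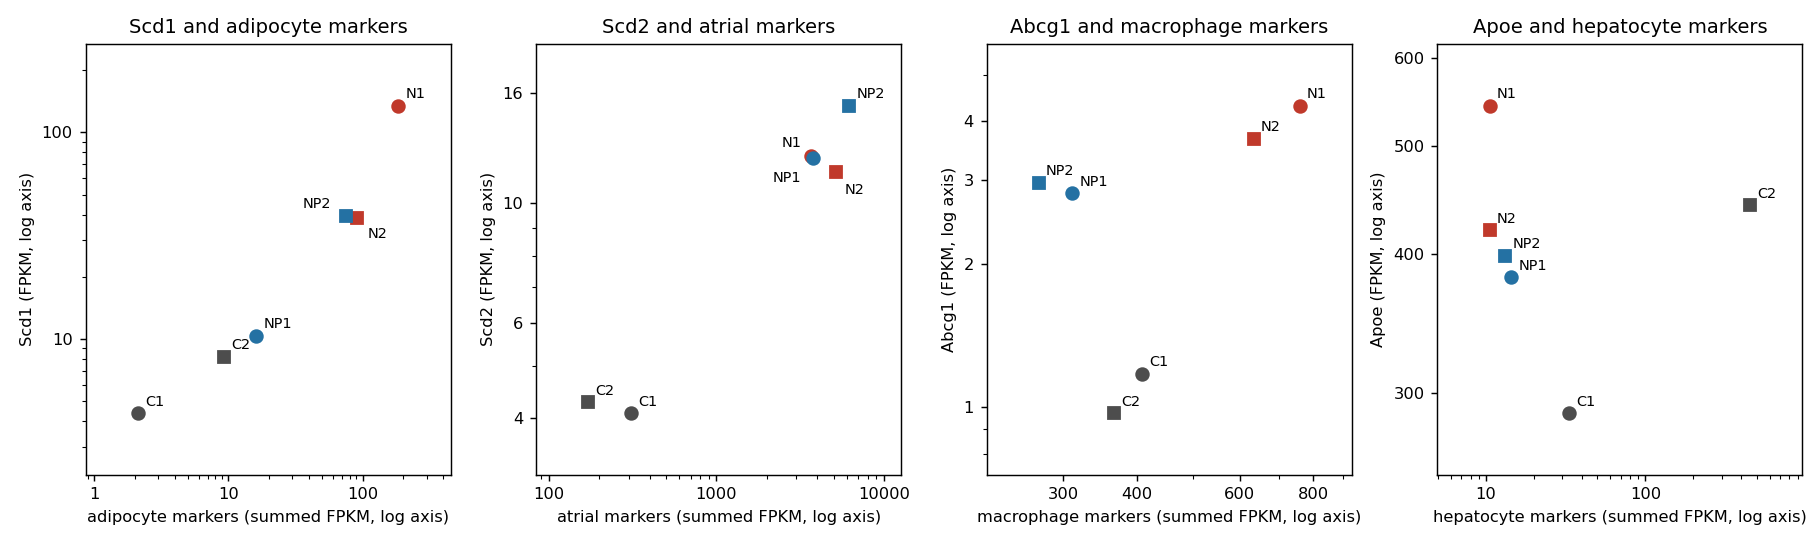
Levels of 4 genes (vertical axes, FPKM, log scale) against the summed FPKM of marker genes of a cell type (horizontal axes, log scale) in the 6 libraries, each labelled with its group and replicate number. *Scd1* is highest in N replicate 1, where the adipocyte sum is 185, and *Scd2* and the atrial sum are both low in the C libraries only. From the C to the NP libraries *Abcg1* is higher and the macrophage sum is lower, and *Apoe* in C replicate 2 stands beside a hepatocyte sum of 454.

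*Srebf1* (chr11:60199084-60224186, minus strand) encodes SREBP-1, the transcription factor through which liver X receptors raise fatty acid synthesis. It was at 11.2 and 11.4 FPKM in the C libraries, 19.7 and 11.3 FPKM in the N libraries, and 16.4 and 11.9 FPKM in the NP libraries. N replicate 2 lay between the C libraries, so that the N and C groups overlapped, while both NP libraries were above both C libraries. The difference between N and C was 0.38, with an interval from -0.29 to 1.04 and an adjusted *P* value of 0.580 in limma. It was 0.00157 without N replicate 1 and 0.75 without N replicate 2. Between NP and N it was -0.09, with an interval from -0.76 to 0.57.

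*Lpcat3* (chr6:124663094-124704716, plus strand) encodes an enzyme that puts polyunsaturated fatty acids into membrane phospholipids. It was at 21.2 and 23.2 FPKM in the C libraries, 28.7 and 21.4 FPKM in the N libraries, and 24.4 and 20.9 FPKM in the NP libraries. All 3 groups overlapped. Its difference was 0.15 between N and C, with an interval from -0.26 to 0.57 and an adjusted *P* value of 0.731 in limma, and -0.13 between NP and N, with an interval from -0.54 to 0.29.

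Ordered by the range between the highest and the lowest group mean on the log2 scale, the genes ran from *Scd1* at 3.38 through *Scd2* at 1.49, *Abcg1* at 1.26, *Abca1* at 0.73, *Mylip* at 0.63, *Apoe* at 0.42, *Srebf1* at 0.38, *Nr1h2* at 0.26 and *Nr1h3* at 0.21 to *Lpcat3* at 0.15. The places of *Scd2* and *Abcg1* rest on the pseudocount, since with 0.1 in place of 1 the largest difference of *Abcg1* was 1.80 and that of *Scd2* was 1.67. In the comparison of N with C, the 95% intervals of each pair of neighbours in this order overlapped.

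The replicates of the N and NP groups were then compared by number. The files of these 4 libraries carry names of 2 kinds that follow the replicate number, so that the number may mark a set of samples. Only 1 of the 2 kinds holds a tag of 3 weeks, although the labels give 3 weeks for all libraries. Whether the number also marks the time of feeding is not stated. N replicate 1 lay above N replicate 2 for 10 of the 10 genes and for 51.5% of all genes tested, and NP replicate 1 lay above NP replicate 2 for 6 of the 10 and for 50.9% of all. For 6 of the 10 genes, replicate 1 was the higher one in both groups, as for 36.3% of all genes tested. Within each number, NP lay below N for 5 genes in both numbers, above N for 1 gene, *Mylip*, in both numbers, and on opposite sides for 4 genes. Over all genes tested, these shares were 26.1%, 33.6% and 39.5%. For *Abcg1* the difference of NP from N was -0.48 for replicate 1 and -0.24 for replicate 2 on the log2 scale. For *Apoe* the differences were -0.51 and -0.08, and for *Nr1h2* they were -0.28 and -0.12. For *Scd1* the difference was -3.58 for replicate 1 and 0.04 for replicate 2, so that its lower mean in the NP group came from replicate 1. *Scd2* showed -0.01 and 0.38 and *Abca1* showed -0.02 and 0.21.

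**Figure D4:**
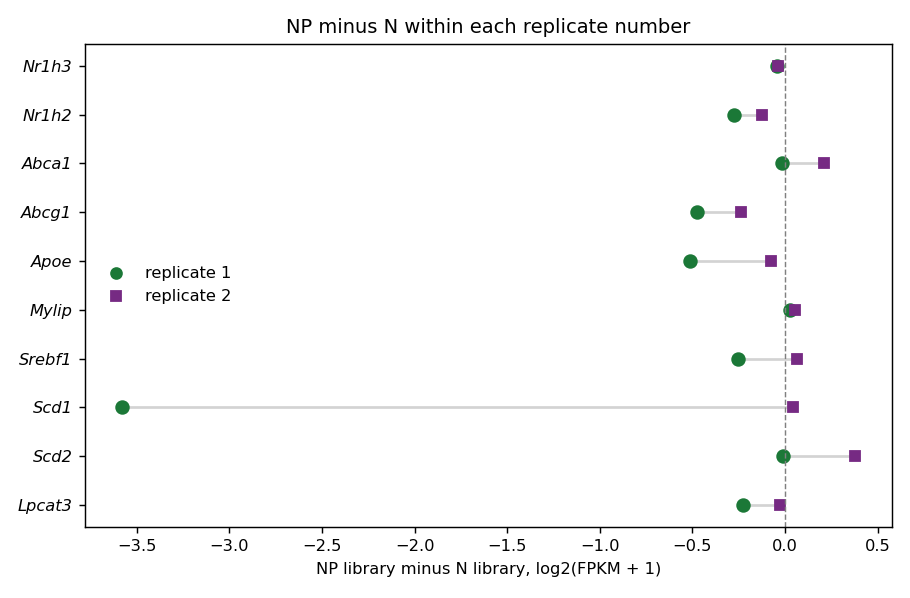
Difference in log2(FPKM + 1) between the NP and the N library of the same replicate number for the 10 genes, with circles for replicate 1 and squares for replicate 2. Both points of *Nr1h3*, *Nr1h2*, *Abcg1*, *Apoe* and *Lpcat3* lie below 0, and those of *Scd1* lie at -3.58 and 0.04.

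In 4 lists of other genes of the pathway, limma called 0 genes after adjustment in any of the 3 comparisons. Of all 12923 genes tested, 1938 had an unadjusted *P* value under 0.05 in limma for N against C. For NP against N and NP against C there were 1039 and 1040. The unadjusted counts of each list are to be read beside these. The first list held 11 partners and coregulators of the receptors, all of them tested. Its differences had a median of -0.06 between N and C and 0.07 between NP and N, and 0, 0 and 2 genes had an unadjusted *P* value under 0.05 for N against C, NP against N and NP against C. *Rxrg*, the retinoid X receptor of muscle, was at 55.9 and 53.1 FPKM in the C libraries, 56.5 and 48.0 FPKM in the N libraries, and 42.2 and 42.8 FPKM in the NP libraries, with an adjusted *P* value of 0.551 for NP against C. The coactivator *Ncoa1* differed by 0.35 and the corepressor-bound deacetylase *Hdac3* by -0.21 in the same comparison.

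The second list held 11 genes that make or clear oxysterols, of which 8 were tested. Medians were -0.11 between N and C and -0.13 between NP and N, and 1 gene had an unadjusted *P* value under 0.05 in limma in each of the 3 comparisons. *Ch25h*, which makes 25-hydroxycholesterol and is induced in macrophages, was at 0.464 and 0.282 FPKM in the C libraries, 1.39 and 1.099 FPKM in the N libraries, and 0.635 and 0.512 FPKM in the NP libraries. The N libraries did not overlap with the others. Its difference was 0.71 between N and C and -0.51 between NP and N, with adjusted *P* values of 0.120 and 0.389 in limma. *Cyp7b1*, which clears oxysterols, was highest in C replicate 2 at 1.99 FPKM and was listed at 0 in NP replicate 2. *Hsd11b1* differed by -0.33 between NP and N.

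The third list held 27 other targets of the receptors, of which 22 were tested. Between N and C, 12 of the 22 were higher, the median was 0.14 and 9 had an unadjusted *P* value under 0.05 in limma, 5 with a positive and 4 with a negative difference. Among these 4 were *Apoc1*, *Apoc2* and *Apoc4*, which were highest in C replicate 2, the library with hepatocyte transcripts. They were at 158, 3.43 and 14.6 FPKM there and at 18.0, 0.734 and 1.62 FPKM in C replicate 1. The part of liver RNA in these levels was not tested. Between NP and N the median was -0.09 with 3 such genes, and between NP and C it was 0.03 with 4. *Pltp*, the phospholipid transfer protein gene, was at 22.6 and 22.5 FPKM in the C libraries, 42.8 and 30.5 FPKM in the N libraries, and 26.6 and 24.4 FPKM in the NP libraries. Its 3 groups did not overlap, with differences of 0.66 between N and C and -0.49 between NP and N and adjusted *P* values of 0.163 and 0.512. *Elovl5*, which elongates polyunsaturated fatty acids, was at 11.4 and 12.3 FPKM in the C libraries, 18.1 and 17.4 FPKM in the N libraries, and 16.1 and 18.99 FPKM in the NP libraries, a difference of 0.54 between N and C with an adjusted *P* value of 0.123. *Mlxipl*, the gene of the glucose sensor ChREBP, differed by -0.57, with an adjusted *P* value of 0.188.

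The fourth list held 15 genes of the SREBP axis, of which 14 were tested, with medians of 0.01, -0.05 and 0.05 for N against C, NP against N and NP against C. In limma, 1, 0 and 3 of the 14 genes had an unadjusted *P* value under 0.05. *Gpam*, which starts the synthesis of triglycerides, was at 90.2 and 96.2 FPKM in the C libraries, 72.2 and 60.04 FPKM in the N libraries, and 64.3 and 52.7 FPKM in the NP libraries. All 4 libraries from the NASH diet lay below the C libraries, and the adjusted *P* values were 0.215 and 0.461 for N and NP against C. *Insig2* and *Me1* differed by -0.34 and -0.27 between NP and C.

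The genes most like the 3 widest ranging ones were found by Pearson's correlation of log2(FPKM + 1) over the 6 libraries, as a description in which the points share the differences between groups and in depth. For *Scd1* they were *Ntrk2* (0.996), the adipocyte gene *Retn* (0.993) and *Gm2a* (0.993). For *Scd2* they were *Cdon* (0.998), *Igfbp5* (0.995) and *Peg3* (0.995), and for *Abcg1* they were *Tmem51* (0.997), *Coro1c* (0.995) and *Pkhd1l1* (0.992). Of these, *Retn* was also one of the adipocyte markers.

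Some of these genes share sequence with others, so that their values may hold reads of other genes or miss some. Of the 75-base windows in its exons, *Scd1* shared 3.15% with other genes, among them *Scd2* and *Scd3*, and *Scd2* shared 1.78% with *Scd1*, *Scd3* and *Scd4*. *Lpcat3* shared 7.49% of its windows with *Emg1* and *Srebf1* shared 0.598% with *Rai1*, genes on the opposite strand that overlap them. The library kit marks strand, but the strand setting of the FPKM is not given in the sources used here, so reads of such overlaps cannot be assigned with certainty. The exons of *Srebf1* and *Scd2* also hold the microRNA genes *Mir6922* and *Mir5114*. An exon of *Nr1h3* overlaps the noncoding gene *Gm13783* on the same strand, which is not among the genes listed. The other 6 genes, *Nr1h3* among them, shared 0 windows.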

How the data were processed

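The authors sequenced heart RNA as single 75-base reads, with 2 libraries in each of the C, N and NP groups, which follow the sample labels. The submitters' processing notes name TopHat2 2.0.13, Bowtie2 2.2.3, SAMtools 0.1.19 and Cufflinks 2.2.1 with the mouse genome mm10, and the gene annotation is not given in the sources used here. The deposited values are FPKM, which the authors computed with Cufflinks, and read counts were not used here. They were analysed with R 4.3.3, limma 3.58.1, Python 3.11.15, numpy 2.4.6, pandas 2.3.3 and matplotlib 3.10.9.

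FPKM were taken as log2(FPKM + 1) with a pseudocount of 1 and not scaled further, and a mean FPKM of 0.5 was required for testing. Limma fitted each gene with a term for each of the 3 groups, 3 residual degrees of freedom and empirical Bayes moderation with a trend on the mean, and *P* values were adjusted over all genes tested in a comparison at a threshold of 0.05. No permutation test was run, since the smallest two-sided *P* value of an exact one with 2 libraries a group is 0.333. The fit was tested on simulated data with known changes. Whether replicate numbers pair the libraries was checked by the Pearson correlation across genes of the differences between replicates, which was 0.0471 between C and N, 0.124 between C and NP, and 0.458 between N and NP. They were not treated as pairs in the main analysis, although the file names of the N and NP libraries are of 2 kinds that follow the number.

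The genes and lists were chosen with earlier results of these data known. All 10 genes were named, with the 3 genes of the largest absolute moderated t in any comparison in each of 4 hand-written pathway lists and the 3 genes most correlated with each of the 3 genes of the widest range. Cell type markers came from 10 hand-written lists. Summed over 5 genes each, endothelial markers ranged from 240 to 319 FPKM and fibroblast markers from 418 to 619 FPKM over the 6 libraries. The 4 brown adipocyte markers ranged from 18.8 to 41.9 FPKM.

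Depth was estimated from the steps between low FPKM of 4107 genes that have 1 transcript, whose length was shortened by 200 bases. In each library, 73.5% to 78.8% of the values up to 5 reads were whole within a tolerance of 0.1 read. Gene positions and promoters are those of RefSeq for GRCm38.p6, the patched form of mm10. Shared windows were counted on GENCODE M21 exons. Alternatives were the pseudocount, the filter, 3 scalings, 2 forms of block, the groups in the fit, the trend, and each library left out in turn.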

Additional observations from a re-analysis of the deposited data

How the results depend on the processing

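The calls of *Abcg1* and *Scd2* between N and C held under every alternative that kept all C and N libraries, with adjusted *P* values in limma from 0.00562 to 0.0366. With 1 library left out, between 0 and 2 of the 10 genes were called for N against C and 0 for the other comparisons, and between 78 and 194, 75 and 106, and 5 and 107 of all genes were called for N against C, NP against N and NP against C, where the full data gave 200, 179 and 5. The labels do not say what a replicate number marks, and the numbers deviated together between N and NP (correlation of 0.458) but little with the C libraries (0.0471 and 0.124), so no pairing of all 3 groups was assumed. With the replicate block, 328 and 20 of all genes were called for N and NP against C, and *Scd2* was called for NP against C (adjusted *P* = 0.0316). With such a replicate block on N and NP alone, the counts were 1100, 301 and 55, and 4 of the 10 genes were called for N against C (*Abca1* at 0.0245 and *Mylip* at 0.0321 in addition) and 1 for NP against C (*Scd2* at 0.0197). Of the 10 genes, *Scd2* alone was also called for NP against C with a pseudocount of 0.1 (0.0351; 12 of all genes) and with libraries scaled to 1 common total (0.0350; 10 of all genes), which gave 312 for N against C. That scaling moved the median difference of all genes from -0.03 to 0.12 for N against C and from -0.01 to 0.12 for NP against C. Without the filter, 0 of all genes were called for NP against C, and with only the 2 groups compared, 112 were called for NP against N. Directions turned only for differences that were not called, and only with a library left out. For N against C, *Lpcat3* ranged from -0.050 (without N replicate 1) to 0.36. For NP against C, *Apoe* ranged from -0.18 (without C replicate 1) to 0.44 and *Lpcat3* from -0.079 to 0.13, turning without C replicate 1 (-0.04) and NP replicate 1. For NP against N, *Nr1h3* ranged from -0.14 to 0.061, *Srebf1* from -0.47 to 0.28 and *Lpcat3* from -0.33 to 0.076, each turning without N replicate 1, and the first 2 also without NP replicate 2 (0.06 and 0.12). *Abca1* ranged from -0.12 to 0.32 and *Mylip* from -0.23 to 0.31, both turning without N replicate 2 and without NP replicate 1 (-0.00481 and -0.21). The cause of these turns was not tested, and such fits also hold fewer samples. Of the differences recomputed, 424 kept their direction and their side of the threshold, 13 turned, 6 gained a call and 7 lost one.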

Other observations

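A few lipid genes of the lists of other targets and of the SREBP axis are given here that were singled out after their values were seen. In these lists 12 of 22 and 7 of 14 genes tested were higher in the N than in the C group, so the genes below stand for neither list. *Fasn*, the gene of fatty acid synthase, was at 3.62 and 3.32 FPKM in the C libraries, 22.6 and 7.56 FPKM in the N libraries, and 4.92 and 7.87 FPKM in the NP libraries, with a difference of 1.67 between N and C and an adjusted *P* value of 0.194 in limma. *Acaca*, which makes malonyl-CoA, was at 2.81 and 2.24 FPKM in the C libraries, 8.82 and 4.24 FPKM in the N libraries, and 3.57 and 4.33 FPKM in the NP libraries (difference of 1.03, adjusted *P* = 0.205). *Acly*, which makes cytosolic acetyl-CoA, was at 12.6 and 11.9 FPKM in the C libraries, 22.9 and 14.1 FPKM in the N libraries, and 13.97 and 12.97 FPKM in the NP libraries (difference of 0.52, adjusted *P* = 0.353). N replicate 1, the library with the largest summed adipocyte markers, was the highest for these 3 genes. *Acss2*, which also makes acetyl-CoA, did not share their order, with means of 17.5 ± 0.878, 16.4 ± 2.32 and 15.8 ± 0.690 FPKM in the C, N and NP groups, nor did *Me1*, which supplies NADPH, with 68.1 ± 2.71, 62.6 ± 0.441 and 56.3 ± 3.998 FPKM (SD, n = 2). *Apoc1*, a gene beside *Apoe* in the genome, was at 158 FPKM in C replicate 2, the library with hepatocyte transcripts, and between 5.54 and 18.0 FPKM in the other 5 libraries. The part of fat or liver RNA in these levels was not tested.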
